A study of Mus musculus with 7 samples.

Results

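The genes described here are those of the major histocompatibility complex (MHC), the immunoproteasome and the interferon response in mouse mammary epithelial cells. Members were chosen by symbol alone: H2- genes, the Irf, Ifit, Ifitm, Oas and Gbp families, Stat2, Tap1, Tap2, Psmb8, Psmb9, Psmb10, B2m, Tapbp, Nlrc5, Ciita, Isg15, Mx1, Mx2, Rsad2 and Usp18. A gene had to have a probe set that is annotated to it and to no other gene, and the probe set with the highest mean signal stood for the gene. This gave 73 member genes of 17096 genes in all. They rest on 110 probe sets, and 23 of the members had more than 1. Of the genes the rule names, B2m, Tap1, Tap2 and Isg15 had no such probe set and are not analysed here. Of the 73 members, 28 lie on chromosome 17, which carries the mouse MHC, 14 on chromosome 5 and 7 on chromosome 7.

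The study hybridised amplified RNA of sorted mouse mammary cells to 7 Affymetrix arrays. The first group was 3 arrays of CD49fHi Lgr5Hi cells sorted at E14 from Lgr5-IRES-GFP female embryos, each a pool of the female embryos of 1 litter, with 2000, 2000 and 813 cells. The second group was 2 arrays of adult luminal cells, sorted as YFP+ from K8CREERT2/RosaYFP mice 8 weeks after tamoxifen, and the third was 2 arrays of adult basal cells, sorted as YFP+ from K5CREERT2/RosaYFP mice, also 8 weeks after tamoxifen. The luminal and basal groups thus differ in the keratin promoter that drives the inducible Cre as well as in lineage. The adult arrays are marked as a re-analysis, and their labels repeat the embryonic tissue and protocol, and the preparation of the adult cells is not described in the sources used here. The labels do not tie the 2 arrays of an adult group to different mice. The p-values therefore reflect array-to-array spread, which may be technical, and precision is limited by having so few arrays.

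MHC class I molecules, made of a heavy chain and beta-2 microglobulin, show peptides from inside the cell to cytotoxic T cells, and nearly all nucleated cells carry them. The peptides are cut by the proteasome, in which interferon induces replacement of the standard catalytic subunits by Psmb8, Psmb9 and Psmb10. Class II molecules show peptides taken up from outside to helper T cells, and dendritic cells, macrophages and B cells are their usual carriers. Type I and type III interferons signal through a complex that holds Stat2 and Irf9 to genes with an interferon-stimulated response element (ISRE), such as the Oas, Ifit and Mx genes. Interferon gamma signals to genes with a gamma-activated site (GAS), such as Irf1 and the Gbp genes.

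Adult luminal cells were compared with adult basal cells to ask how the mature lineages differ. Values are log2 of the deposited intensity, and differences are luminal minus basal with the standard error (SE) of the limma fit. A gene is said to have changed where its Benjamini-Hochberg adjusted p over all 17096 genes was under 0.05 and the difference was at least 2-fold. Few of these genes changed between the lineages. Psmb8, the immunoproteasome subunit with chymotrypsin-like activity, was the 1 member that was higher in luminal cells, at 1.20 ± 0.26. Ifitm1, an interferon-induced membrane protein that restricts virus entry, was the 1 member that was lower in luminal than in basal cells, at -1.31 ± 0.23. The 2 changed members were 2.74% of the 73, against 6.81% of all genes. By direction, 1.37% of the members were higher in luminal cells, against 3.57% of all genes, and 1.37% were lower there, that is higher in basal cells, against 3.24% of all genes.

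With no minimum on the fold, 6 members passed the test, which is 8.22%, against 16.8% of all genes. Psmb8, Psmb10, Oas1g and Oasl2 were higher in luminal cells, and Ifitm1 and Ifitm3 were higher in basal cells. That is 5.48% of the members higher in luminal cells, against 10.7% of all genes, and 2.74% higher in basal cells, against 6.14% of all genes. At an unadjusted p under 0.05 there were 16 members, or 21.9%, against 31.6% of all genes. The median difference over the 73 members was 0.01, against 0.02 over all genes, with 37 members above 0 and 36 below. The differences of members ran from -1.31 to 1.20. In sorted bulk cells, fewer cells of a type and less RNA per cell cannot be told apart.

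**Figure D1:**
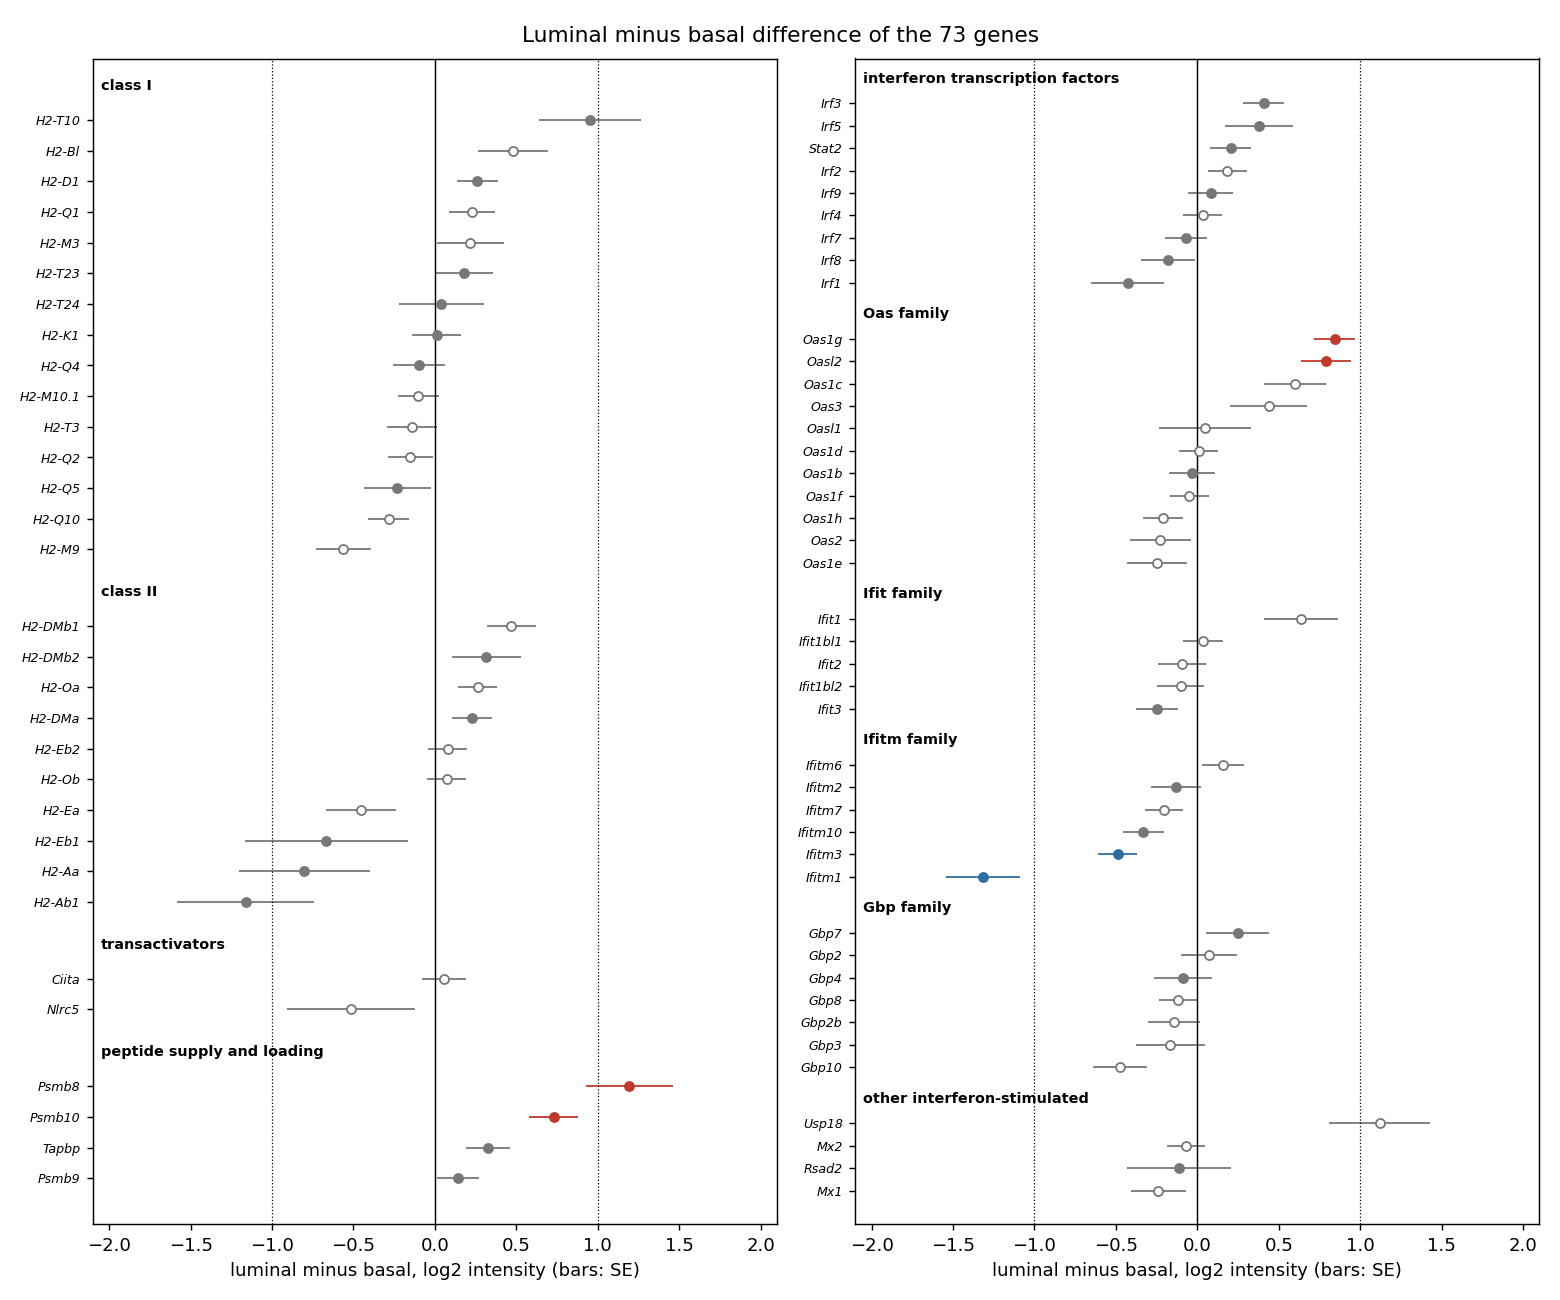
Luminal minus basal difference in log2 intensity (x axis) of each of the 73 genes, grouped by role; points are the limma estimates, bars their SE, and dotted lines mark 2-fold. Red points passed the adjusted p threshold higher in luminal cells and blue points higher in basal cells, and open points are genes whose level was not above background in either adult group; most genes lie near 0, and 6 are coloured.

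Where a level lies relative to background bears on each of these values. The background level was set at log2 5.90, an intensity of 59.5, which is the 95th percentile over 144 probe sets whose 104 genes belong to organs outside the mammary gland. By their mean over the 7 arrays, 29 members were above it, or 39.7%, against 46.6% of all genes. In luminal or in basal cells, 34 members were above it. All 4 measured genes of peptide supply and 7 of the 9 transcription factors were among these 34, but only 1 of the 5 Ifit genes, 3 of the 11 Oas genes and neither of the transactivators.

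The RefSeq promoter windows (GRCm38.p6), which run from 250 bases before a transcription start to 50 after it, are shown for 4 members that passed the test, because the interferon elements known for this class of gene differ between them. Capitals mark matches, on either strand, to an ISRE-like pattern (GAAA, any 2 bases, GAAA) or to a GAS-like pattern (TTC, any 3 bases, GAA), each read 5′ to 3′ on the strand of the gene.
Psmb8, chr17:34197945-34198244, plus strand: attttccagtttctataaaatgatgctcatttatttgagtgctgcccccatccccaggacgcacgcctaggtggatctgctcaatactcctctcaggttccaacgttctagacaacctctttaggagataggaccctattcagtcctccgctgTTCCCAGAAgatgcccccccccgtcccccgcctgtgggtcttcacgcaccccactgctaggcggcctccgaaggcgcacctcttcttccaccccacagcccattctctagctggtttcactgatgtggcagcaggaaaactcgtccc
Oas1g, chr5:120887564-120887863, minus strand: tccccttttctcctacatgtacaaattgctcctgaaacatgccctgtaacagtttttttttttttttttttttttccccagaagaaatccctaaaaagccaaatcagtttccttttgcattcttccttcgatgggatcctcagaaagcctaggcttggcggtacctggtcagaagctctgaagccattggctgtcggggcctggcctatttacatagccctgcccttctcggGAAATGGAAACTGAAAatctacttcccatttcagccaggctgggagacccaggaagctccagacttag
Ifitm1, chr7:140967826-140968125, plus strand: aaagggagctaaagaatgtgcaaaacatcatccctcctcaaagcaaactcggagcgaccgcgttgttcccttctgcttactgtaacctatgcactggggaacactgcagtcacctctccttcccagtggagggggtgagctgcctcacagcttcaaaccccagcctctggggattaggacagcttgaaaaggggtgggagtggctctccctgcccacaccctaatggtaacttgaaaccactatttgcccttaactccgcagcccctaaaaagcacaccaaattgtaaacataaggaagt
Ifitm3, chr7:141010695-141010994, minus strand: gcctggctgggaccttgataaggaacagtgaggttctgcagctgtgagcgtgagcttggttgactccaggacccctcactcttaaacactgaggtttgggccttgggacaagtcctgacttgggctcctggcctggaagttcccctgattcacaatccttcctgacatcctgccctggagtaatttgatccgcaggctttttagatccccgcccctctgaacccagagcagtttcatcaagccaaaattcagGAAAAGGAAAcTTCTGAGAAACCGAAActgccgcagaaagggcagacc
The Psmb8 window held 1 GAS-like match and no ISRE-like match. The Oas1g window held 2 ISRE-like matches that overlap each other, just before the start. In the Ifitm3 window, 2 ISRE-like matches and 1 GAS-like match that overlaps the second of them lay just after the start. The Ifitm1 window had no match, and those of Oasl2 and Psmb10 had none either, which says only that these letters are not in these windows.

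Of the 73 members, 54 had a RefSeq window. An ISRE-like match was found for 17 of the 54, or 31.5%, against 3.99% of all 27025 genes with a window. A GAS-like match was found for 10, or 18.5%, against 9.55% of all genes, and the CCAAT box, which occurs in many MHC promoters, for 32, or 59.3%, against 41.1%. The 17 members with an ISRE-like match differed between luminal and basal cells by a median of 0.07, from -0.49 to 0.84, and 2 of them passed the test. The 37 members without one had a median of 0.03 and 4 that passed. A match is a description of the sequence and does not show that a factor binds there.

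All 4 measured genes of peptide supply had a positive difference, and 2 of them, Psmb8 and Psmb10, were higher in luminal cells by the test. Psmb8 had 8.04 and 8.28 in luminal cells, against 6.58 and 7.35 in basal cells. Both luminal arrays lay above both basal arrays, and the basal arrays were 0.77 apart. The difference was a 2.29-fold higher intensity in luminal cells, with adjusted p = 0.0345. Without luminal array 1 the adjusted p was 0.129, without luminal array 2 it was 0.154, and without basal array 1 the difference was 0.81, which is under 2-fold. A further Psmb8 probe set, whose values were all under the background level, differed by 0.46.

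Psmb10, the immunoproteasome subunit with trypsin-like activity, had 8.09 and 8.07 in luminal cells, against 7.19 and 7.52 in basal cells. The luminal arrays were alike and above both basal arrays. The difference was 0.73 ± 0.15, with adjusted p = 0.0299, and stayed under 2-fold.

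Psmb9, the third inducible subunit, gave different answers by probe set. The probe set with the highest signal had 6.96 and 7.11 in luminal cells, against 6.94 and 6.84 in basal cells, a difference of 0.14 with adjusted p = 0.534. Another Psmb9 probe set had 6.67 and 6.95 in luminal cells, against 5.28 and 5.75 in basal cells. With every probe set tested on its own, that one was 1.30 ± 0.20 higher in luminal cells with adjusted p = 0.0203, and the third differed by 0.27 with adjusted p = 0.243. All 3 differences had the same sign, and their sizes differed by 1.16. Which of the 3 stands for the Psmb9 transcript was not tested.

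Tapbp encodes tapasin, which holds empty class I molecules at the peptide transporter. It had 9.76 and 9.76 in luminal cells, against 9.32 and 9.55 in basal cells. The difference of 0.33 did not pass (adjusted p = 0.169).

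**Figure D2:**
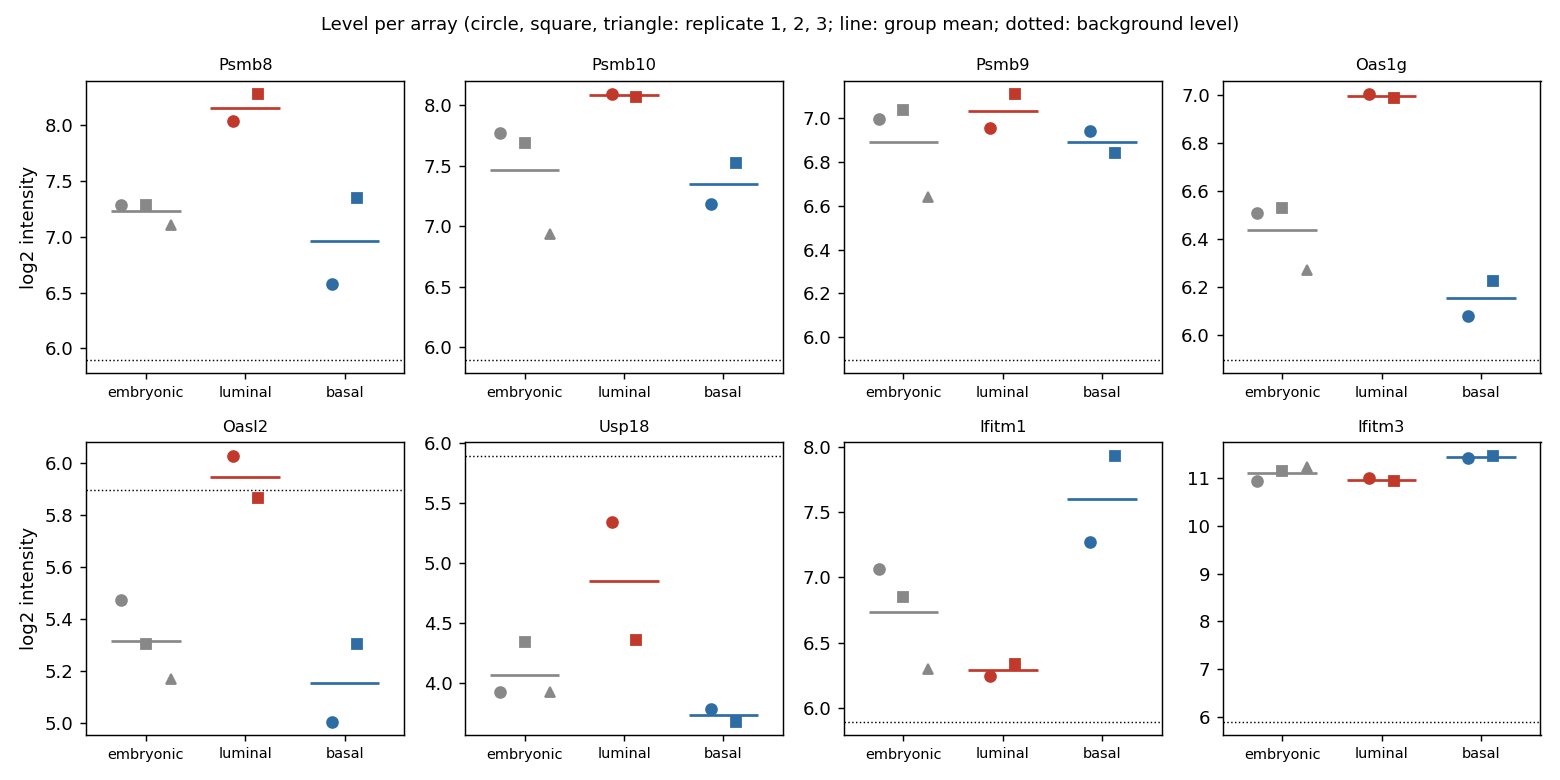
Log2 intensity on each array (y axis, own scale per gene) in embryonic, luminal and basal cells (x axis) for 8 members: those that passed the test, Psmb9 and Usp18; circles, squares and triangles are replicates 1, 2 and 3, lines are group means and the dotted line is the background level of 5.90. Both luminal arrays lie above both basal arrays for Psmb8, Psmb10, Oas1g and Oasl2 and below them for Ifitm1 and Ifitm3, and Usp18 lies below background in all 3 groups.

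Of 15 class I genes, 7 were above background in an adult group and none changed or passed the test. Their median difference was 0.01, with a range of -0.56 to 0.95, and 8 were above 0. H2-K1, a classical class I heavy chain, had 11.74 and 11.51 in luminal cells, against 11.49 and 11.73 in basal cells. The arrays of the 2 lineages overlapped completely, with a difference of 0.01 ± 0.15 and adjusted p = 0.980. H2-D1, another classical heavy chain, had 11.58 and 11.71 in luminal cells, against 11.36 and 11.42 in basal cells. That is a difference of 0.26 ± 0.12 which did not pass (adjusted p = 0.220). H2-T10, a nonclassical class I gene, had 8.51 and 8.54 in luminal cells, against 7.08 and 8.06 in basal cells. Its basal arrays were nearly 2-fold apart, and the difference of 0.95 ± 0.31 did not pass (adjusted p = 0.0969). Without basal array 2 it was 1.45 with adjusted p = 0.00286, and without basal array 1 it was 0.46 with adjusted p = 0.102. H2-M9, at -0.56, lay below background in all arrays.

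Probe sets of the classical genes did not speak with 1 voice. The classical class I genes are similar in sequence and differ between mouse strains. A further 5 probe sets are annotated to H2-K1, H2-D1 and LOC547349 together. Values of single class I genes are therefore uncertain. Over these 14 probe sets, 4 were at least 2-fold lower in luminal array 2 than in luminal array 1. One annotated to H2-D1 alone had 9.83 and 8.65 in luminal cells, against 9.64 and 9.96 in basal cells. One of the shared probe sets had 10.27 and 9.11 in luminal cells, against 10.07 and 10.35 in basal cells. These values show 1 luminal array apart from the 3 other adult arrays.

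The same 4 probe sets were at least 0.8 lower in embryonic array 2 than in embryonic array 1. The probe set of H2-D1 alone had 9.69, 8.83 and 8.98 in embryonic cells, and the shared one 10.19, 8.94 and 9.56. All 4 differed by under 0.5 between the basal arrays. Over the whole table, 75 of 45033 probe sets were at least 2-fold lower in luminal array 2 than in luminal array 1, or 0.167%, and 5 of them were also at least 0.8 lower in embryonic array 2. The limits of 0.8 and 0.5 were chosen after these values were seen, so the counts are a description. Whether the mice behind these arrays carried different MHC haplotypes is not stated in the labels and was not tested. Of the 23 members with more than 1 probe set, 12 had probe sets that differed in sign, H2-K1 and H2-D1 among them.

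**Figure D3:**
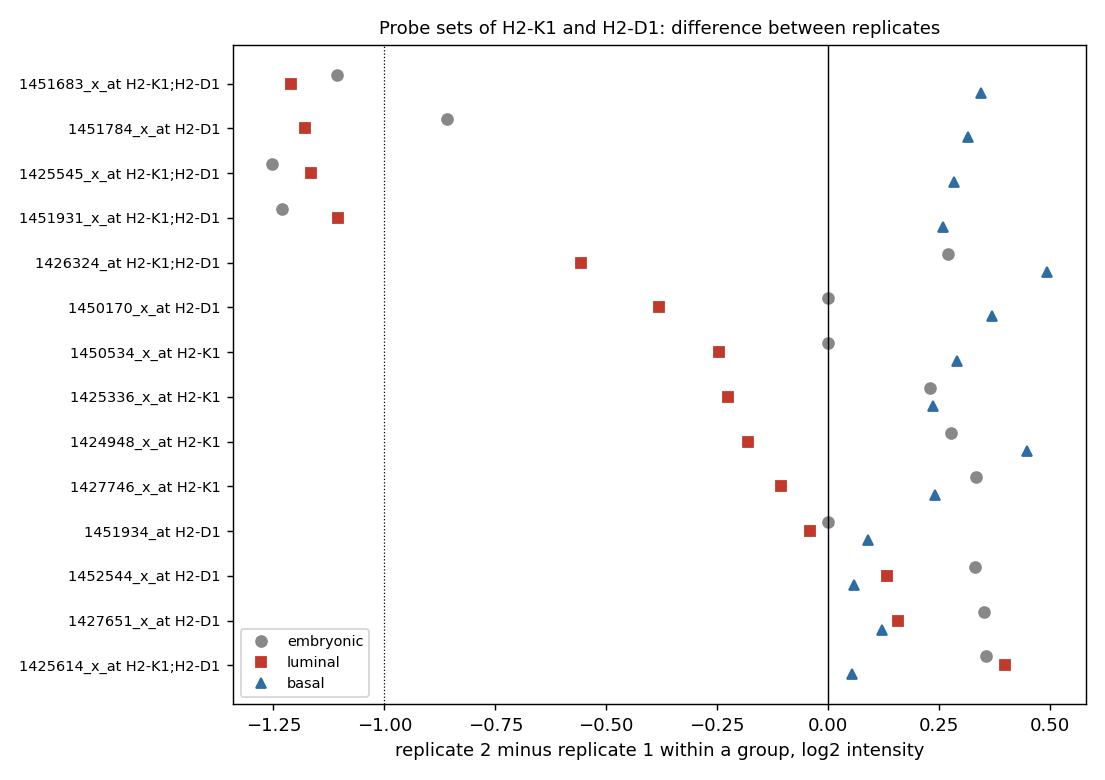
Replicate 2 minus replicate 1 within each group, in log2 intensity (x axis), for the 14 probe sets annotated to H2-K1, to H2-D1 or to both (y axis). Those of both genes are also annotated to LOC547349. Circles are embryonic, squares luminal and triangles basal cells, and the dotted line marks a 2-fold lower value. In 4 probe sets the embryonic and luminal points lie far to the left while the basal points do not.

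Of 10 class II genes, 5 were above background in an adult group and none changed or passed the test, with a median difference of 0.08. H2-Aa, an alpha chain, had 5.92 and 7.23 in luminal cells, against 7.38 and 7.37 in basal cells. H2-Ab1, its beta chain partner, had 6.05 and 7.04 in luminal cells, against 7.24 and 8.18 in basal cells. H2-Eb1, a further beta chain, had 6.0 and 7.59 in luminal cells, against 7.25 and 7.68 in basal cells. All 3 were lowest on luminal array 1, and their values on luminal array 2 lay closer to those of basal cells. The differences were -0.80 ± 0.40 for H2-Aa, -1.16 ± 0.42 for H2-Ab1 and -0.67 ± 0.50 for H2-Eb1, with adjusted p-values of 0.248, 0.121 and 0.442. Without luminal array 2, H2-Aa was at -1.46 (adjusted p = 0.0270) and H2-Eb1 at -1.46 (adjusted p = 0.0485). Without luminal array 1, H2-Aa was at -0.15 (adjusted p = 0.718), H2-Ab1 at -0.67 (adjusted p = 0.448) and H2-Eb1 at 0.13 (adjusted p = 0.841). H2-Ab1 was at -1.63 (adjusted p = 0.0358) without basal array 1 and at -0.70 (adjusted p = 0.266) without basal array 2. Cd74, the invariant chain that guides class II molecules to the endosome, had the same arrangement, with 6.14 and 7.25 in luminal cells, against 7.26 and 7.71 in basal cells.

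H2-Aa and H2-Eb1 were the 2 members at least 2-fold apart between the luminal arrays. That is 2.74% of the members, against 80 of all genes, or 0.468%. The 3 probe sets of H2-Ab1 differed between the lineages by -1.16 to -0.88, and those of H2-Aa by -1.26 to -0.03. H2-DMa, part of the peptide exchange factor for class II, had 5.97 and 5.90 in luminal cells, against 5.67 and 5.75 in basal cells. Its difference of 0.23 did not pass (adjusted p = 0.268), and its level was close to background.

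Most measured markers of other cells were higher in luminal array 2 than in luminal array 1, as were H2-Aa, H2-Ab1 and H2-Eb1. Between the basal arrays the probe set that stood for H2-Aa was level, at 7.38 and 7.37. Another H2-Aa probe set rose from 6.58 in basal array 1 to 7.67 in basal array 2. The last, under the background level, had 2.96 and 2.98. All 3 probe sets of H2-Ab1 were higher in basal array 2, by 0.63 to 0.93, and H2-Eb1 was higher there by 0.43. Of the 14 endothelial markers, 13 were also higher in basal array 2. Of 25 leukocyte markers measured, 23 were higher in luminal array 2 than in luminal array 1, against 8095 of all 17096 genes. None of the 25 passed the test between the lineages, and 7 had a positive difference. Their differences ran from -1.61 to 0.79, with a median of -0.12. The summed intensity of the 25 was 953 and 1071 in luminal cells, against 1080 and 1217 in basal cells. Lyz2, the lysozyme of macrophages, had 3.92 and 6.23 in luminal cells, against 6.32 and 7.05 in basal cells. Ptprc, the pan-leukocyte antigen CD45, lay between 2.73 and 3.18 on the adult arrays, under the background level, and 5 of the 25 markers were above it in an adult group. Of 14 endothelial markers, all 14 were higher in luminal array 2 than in luminal array 1, and their summed intensity was 527 and 875 in luminal cells, against 1209 and 2004 in basal cells. Of these 14, 1 changed, lower in luminal cells, which is 7.14%, against 3.24% of all genes. The 12 fibroblast markers summed to 3130 and 5084 in luminal cells, against 8041 and 9651 in basal cells. Of these 12, 4 changed, all lower in luminal cells, which is 33.3%, against 3.24% of all genes. The part of these cells in the class II values was not tested.

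**Figure D4:**
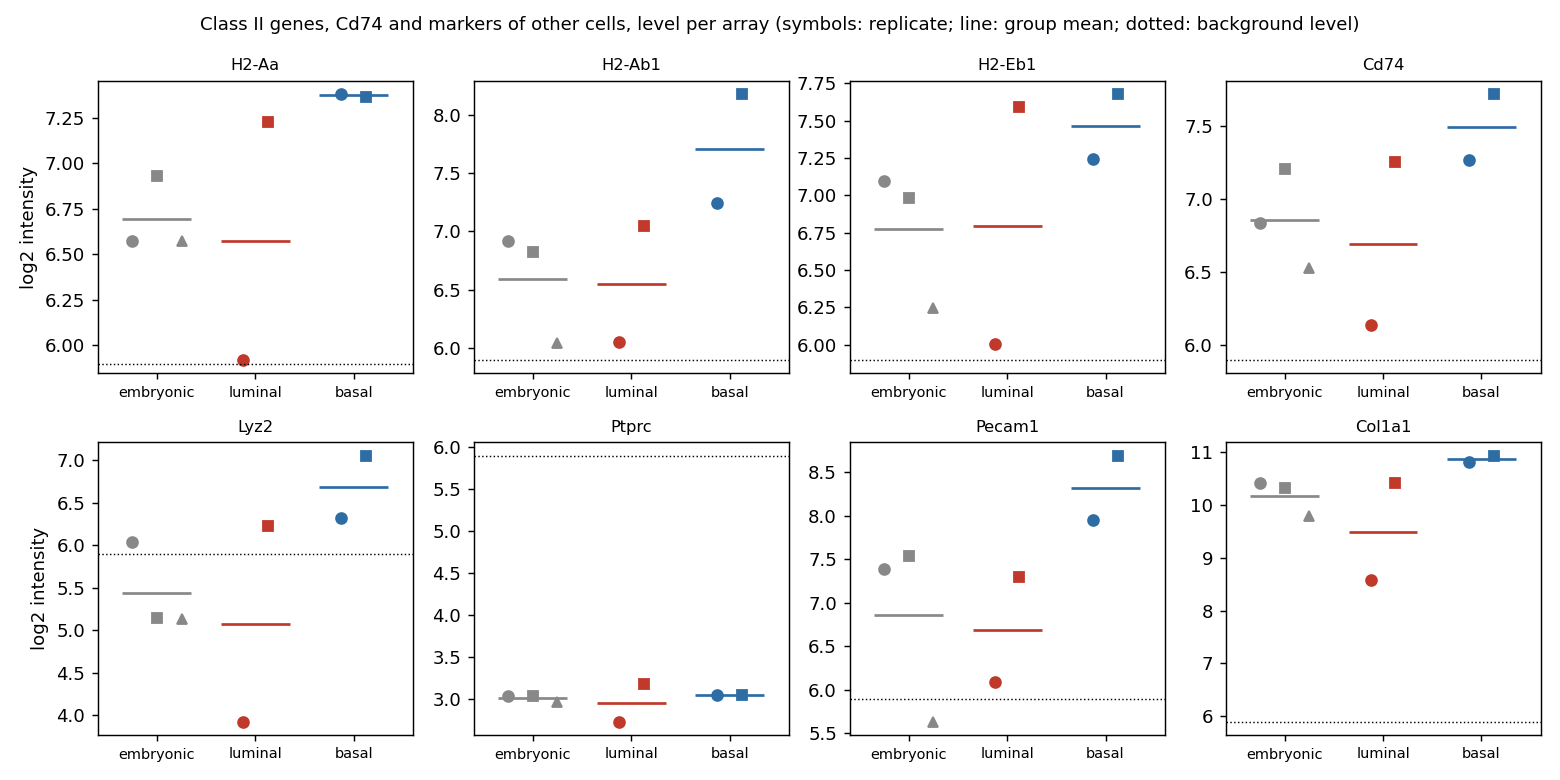
Log2 intensity on each array (y axis, own scale per gene) in embryonic, luminal and basal cells (x axis) for class II genes, Cd74 and markers of leukocytes (Lyz2, Ptprc), endothelium (Pecam1) and fibroblasts (Col1a1); circles, squares and triangles are replicates 1, 2 and 3, lines are group means, and the dotted line is the background level of 5.90. In the luminal group replicate 1 lies below replicate 2 in every panel, by 1.31 for H2-Aa, and Ptprc stays below background.

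Most lineage markers differed in the direction of the adult labels. Of 10 basal epithelial markers, 9 changed, all lower in luminal cells, which is 90%, against 3.24% of all genes. The last, at -0.02, did not pass. Among the basal markers that changed was Krt5, a basal keratin, at 9.13 and 9.56 in luminal cells, against 12.03 and 12.15 in basal cells. Of 15 luminal epithelial markers, 9 changed, all higher in luminal cells, which is 60%, against 3.57% of all genes. A further 4 did not pass the test, and 1 of these was below 0, at -0.05. Krt8, whose promoter drives the luminal Cre, had 11.05 and 11.03 in luminal cells, against 10.69 and 10.59 in basal cells, a difference of 0.40 that did not pass (adjusted p = 0.0750).

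Neither transactivator was above background in an adult group. Nlrc5, which switches on class I genes, had 5.46 and 4.96 in luminal cells, against 6.30 and 5.14 in basal cells. It was the 1 member at least 2-fold apart between the basal arrays, which is 1.37% of the members, against 0.643% of all genes. Its difference of -0.51 ± 0.39 did not pass (adjusted p = 0.449). Without basal array 1 it was 0.07, and without basal array 2 it was -1.10 with adjusted p = 0.0214. Ciita, the master regulator of class II genes, had 4.77 and 4.77 in luminal cells, against 4.83 and 4.60 in basal cells, a difference of 0.06.

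The transcription factors of the interferon response were mostly above background, and none of the 9 passed the test. Their median difference was 0.08, from -0.43 to 0.41. Irf3, the factor that virus sensors activate first, had 7.90 and 7.90 in luminal cells, against 7.41 and 7.57 in basal cells. Its difference was 0.41 ± 0.12 (adjusted p = 0.0807), and its 3 probe sets lay between 0.41 and 0.49. Irf1, an early target of interferon gamma, had 8.11 and 8.08 in luminal cells, against 8.20 and 8.85 in basal cells. Only basal array 2 stood apart there, with a difference of -0.43 ± 0.22 (adjusted p = 0.263). Irf9, the DNA-binding part of the type I interferon complex, had 7.92 and 7.88 in luminal cells, against 7.70 and 7.94 in basal cells, and its groups overlapped. Stat2, its partner, had 7.16 and 7.28 in luminal cells, against 6.96 and 7.07 in basal cells, a difference of 0.21 (adjusted p = 0.339). Irf7, which amplifies type I interferon production, differed by -0.07, and Irf5, which acts downstream of Toll-like receptors, by 0.38. Irf2, a repressor of interferon genes, differed by 0.19, Irf8, a factor of myeloid cells, by -0.18, and Irf4, a factor of lymphocytes, by 0.03. Irf2 and Irf4 were below background.

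Within the Oas family, whose enzymes make the 2′-5′ oligoadenylates that activate RNase L, 2 of 11 genes passed the test and both were higher in luminal cells. Oas1g had 7.0 and 6.99 in luminal cells, against 6.08 and 6.23 in basal cells. The luminal arrays were nearly equal and clear of the basal arrays, with a difference of 0.84 ± 0.12 (adjusted p = 0.0124), a 1.80-fold higher intensity. Oasl2, an Oas-like protein, had 6.03 and 5.86 in luminal cells, against 5.01 and 5.30 in basal cells, and lay above the background level on luminal array 1 only. Its difference was 0.79 ± 0.15 (adjusted p = 0.0243). The family as a whole did not move one way: its median difference was 0.01, with 6 genes above 0 and 5 below. Among the 7 Oas1 genes, which are related in sequence and lie on chromosome 5, the differences ran from -0.25 for Oas1e to 0.84 for Oas1g. Probes of 1 Oas1 gene may also read transcripts of another, so the value of each is uncertain.

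The Ifitm family gave the reverse direction in 2 of its 6 genes. Ifitm1 had 6.24 and 6.33 in luminal cells, against 7.27 and 7.93 in basal cells. No luminal array reached a basal array, and the intensity was 2.49-fold higher in basal cells, with adjusted p = 0.0185. Without luminal array 1 the adjusted p was 0.112, without luminal array 2 it was 0.0838, and without basal array 2 the difference was -0.99, just under 2-fold. Ifitm3, which blocks virus entry from endosomes, averaged 10.97 ± 0.0448 in luminal cells, against 11.46 ± 0.0277 in basal cells (SD, n = 2 each). The arrays within each lineage were close, and the difference was -0.49 ± 0.12 (adjusted p = 0.0438). Ifitm2, the close relative of Ifitm3, had 10.76 and 10.81 in luminal cells, against 10.75 and 11.09 in basal cells, and its groups overlapped. The endothelial and fibroblast marker sums given above were also higher in basal cells, and their part in the Ifitm values was not tested.

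No gene of the Ifit, Gbp or Mx families passed the test. Ifit1, which binds foreign RNA caps, had 5.39 and 5.46 in luminal cells, against 4.46 and 5.12 in basal cells, a difference of 0.63 ± 0.23 (adjusted p = 0.119) below background. Ifit3, its partner, differed by -0.25. The 5 Ifit genes had a median difference of -0.10. Gbp4, a guanylate-binding GTPase, had 8.83 and 8.37 in luminal cells, against 8.66 and 8.71 in basal cells. The 7 Gbp genes, which defend against microbes inside the cell, had a median of -0.12 and a range of -0.48 for Gbp10 to 0.25 for Gbp7. Mx1 and Mx2, antiviral GTPases, were below background and differed by -0.24 and -0.07.

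Usp18, which removes Isg15 from proteins and damps type I interferon signalling, had 5.34 and 4.36 in luminal cells, against 3.79 and 3.68 in basal cells. Luminal array 1 was well above luminal array 2, and all values were under the background level. The difference of 1.12 ± 0.31 did not pass (adjusted p = 0.0641). Without luminal array 2 it was 1.61 with adjusted p = 0.0254, and without luminal array 1 it was 0.63 with adjusted p = 0.135. Rsad2, the antiviral enzyme viperin, had 7.24 and 6.91 in luminal cells, against 6.71 and 7.66 in basal cells, so its basal arrays enclosed the luminal ones and the difference was -0.11 ± 0.32 (adjusted p = 0.871).

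None of the 6 members that passed without a fold minimum did so with either luminal array left out. With luminal array 1 left out their adjusted p-values were 0.0887 to 0.181, and with luminal array 2 left out 0.0725 to 0.190, while all 6 kept their direction. Without basal array 1, Psmb10 had 0.0596 and Ifitm3 0.0800, and without basal array 2 Ifitm3 had 0.0867.

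Genes that act around the members include their receptors, kinases, sensors and further targets. Of 78 further genes in 4 lists of the pathway, 5 changed higher in luminal cells and 1 changed lower, together 7.69%, against 6.81% of all genes. With no fold minimum, 17 were higher in luminal cells, or 21.8%, against 10.7% of all genes, and 4 were lower there, or 5.13%, against 6.14% of all genes. The median difference was 0.19, against 0.02 over all genes. Of the 78 genes, 54 were above background in luminal or in basal cells, as were 8573 of all 17096 genes. Among those 8573, 1592 passed higher in luminal cells and 884 lower there, with a median difference of 0.16. Whether the lists differ from other genes was not tested. Among 6 interferon receptor chains, 4 passed the test and all 4 were higher in luminal cells, a direction in which 10.7% of all genes passed. Ifnlr1, the specific chain of the type III interferon receptor that epithelia use, had 5.96 and 5.49 in luminal cells, against 4.46 and 4.32 in basal cells, and its mean was under the background level in both lineages. Its difference was 1.33 ± 0.19 (adjusted p = 0.0106). Ifngr1 and Ifngr2, which form the interferon gamma receptor, each differed by 0.89 (adjusted p = 0.0385 and 0.0200). Il10rb, the shared chain of the type III receptor, differed by 0.65 (adjusted p = 0.0474). With luminal array 1 left out, Ifngr1 was at 0.61, Ifngr2 at 0.72 and Il10rb at 0.52. With luminal array 2 left out, they were at 1.16, 1.07 and 0.78. The type I receptor chains did not pass, with Ifnar1 at 0.28 and Ifnar2 at -0.00.

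Of the kinases at these receptors, Tyk2 had 7.28 and 6.53 in luminal cells, against 5.54 and 5.82 in basal cells, a difference of 1.22 ± 0.26 (adjusted p = 0.0321). Jak1 was lower in luminal cells, at -0.51 ± 0.12 (adjusted p = 0.0431). Socs3, a feedback inhibitor of cytokine signalling, had 6.14 and 6.85 in luminal cells, against 7.58 and 8.45 in basal cells, a difference of -1.52 ± 0.35 (adjusted p = 0.0395). Of the 14 nucleic acid sensors and adaptors measured, none changed and none passed higher in basal cells. Without a fold minimum 4 passed higher in luminal cells, or 28.6%, against 10.7% of all genes. These were the RNA sensors Ddx58 at 0.64, Ifih1 at 0.91 and Tlr3 at 0.83, and Dhx58, a regulator of that pathway, at 0.95 but below background. Without luminal array 1 the 4 differences ran from 0.56 to 0.95, and without luminal array 2 from 0.71 to 0.99.

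Of 28 other interferon-stimulated genes, 2 changed, both higher in luminal cells, which is 7.14%, against 6.81% of all genes. Without a fold minimum 7 passed in that direction, or 25.0%, against 10.7% of all genes, and 1 in the other. Parp9, an ADP-ribosyltransferase, had 5.99 and 5.92 in luminal cells, against 4.62 and 5.09 in basal cells (1.10 ± 0.18, adjusted p = 0.0166). Dtx3l, its ubiquitin ligase partner, differed by 0.95 (adjusted p = 0.0176). Its difference was 0.83 without luminal array 1 and 1.08 without luminal array 2. Lgals3bp, a secreted galectin ligand, had 7.30 and 7.27 in luminal cells, against 5.86 and 6.48 in basal cells (1.12 ± 0.22, adjusted p = 0.0245). Ifi47, an interferon gamma-induced GTPase, was lower in luminal cells, at -1.0 (adjusted p = 0.0437), which is just under 2-fold. Ifi27 and Ifi35 did not pass, at 0.22 and 0.63.

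Of 23 other antigen processing genes, 1 changed, or 4.35%, against 6.81% of all genes, and that was Psme2. It encodes a subunit of the proteasome activator that interferon gamma induces, and it had 8.93 and 8.85 in luminal cells, against 7.76 and 7.97 in basal cells (1.03 ± 0.13, adjusted p = 0.00896). Its partner Psme1 differed by 0.45 (adjusted p = 0.146). The standard subunits that Psmb8, Psmb9 and Psmb10 replace did not pass: Psmb5 was at 0.50, Psmb6 at 0.33 and Psmb7 at 0.38. Rfx5 and Rfxap, parts of the factor that binds MHC promoters, passed in opposite directions. Rfx5 was at 0.90 (adjusted p = 0.0299) and Rfxap at -0.61 (adjusted p = 0.0295). With luminal array 1 left out they were at 0.67 and -0.52, and with luminal array 2 left out at 1.12 and -0.69. Calr and Canx, chaperones of class I folding, did not pass, at -0.02 and 0.19. Without luminal array 1 the 6 changed genes of these lists had adjusted p-values of 0.0549 for Ifnlr1, 0.106 for Tyk2, 0.188 for Socs3, 0.106 for Parp9, 0.133 for Lgals3bp and 0.0716 for Psme2. Without luminal array 2, Socs3 had 0.0699, Parp9 had 0.0806, Lgals3bp had 0.107 and Psme2 had 0.0536. Without basal array 1, Tyk2 had 0.0613, while Parp9 at 0.86, Lgals3bp at 0.81 and Psme2 at 0.92 were under 2-fold.

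**Figure D5:**
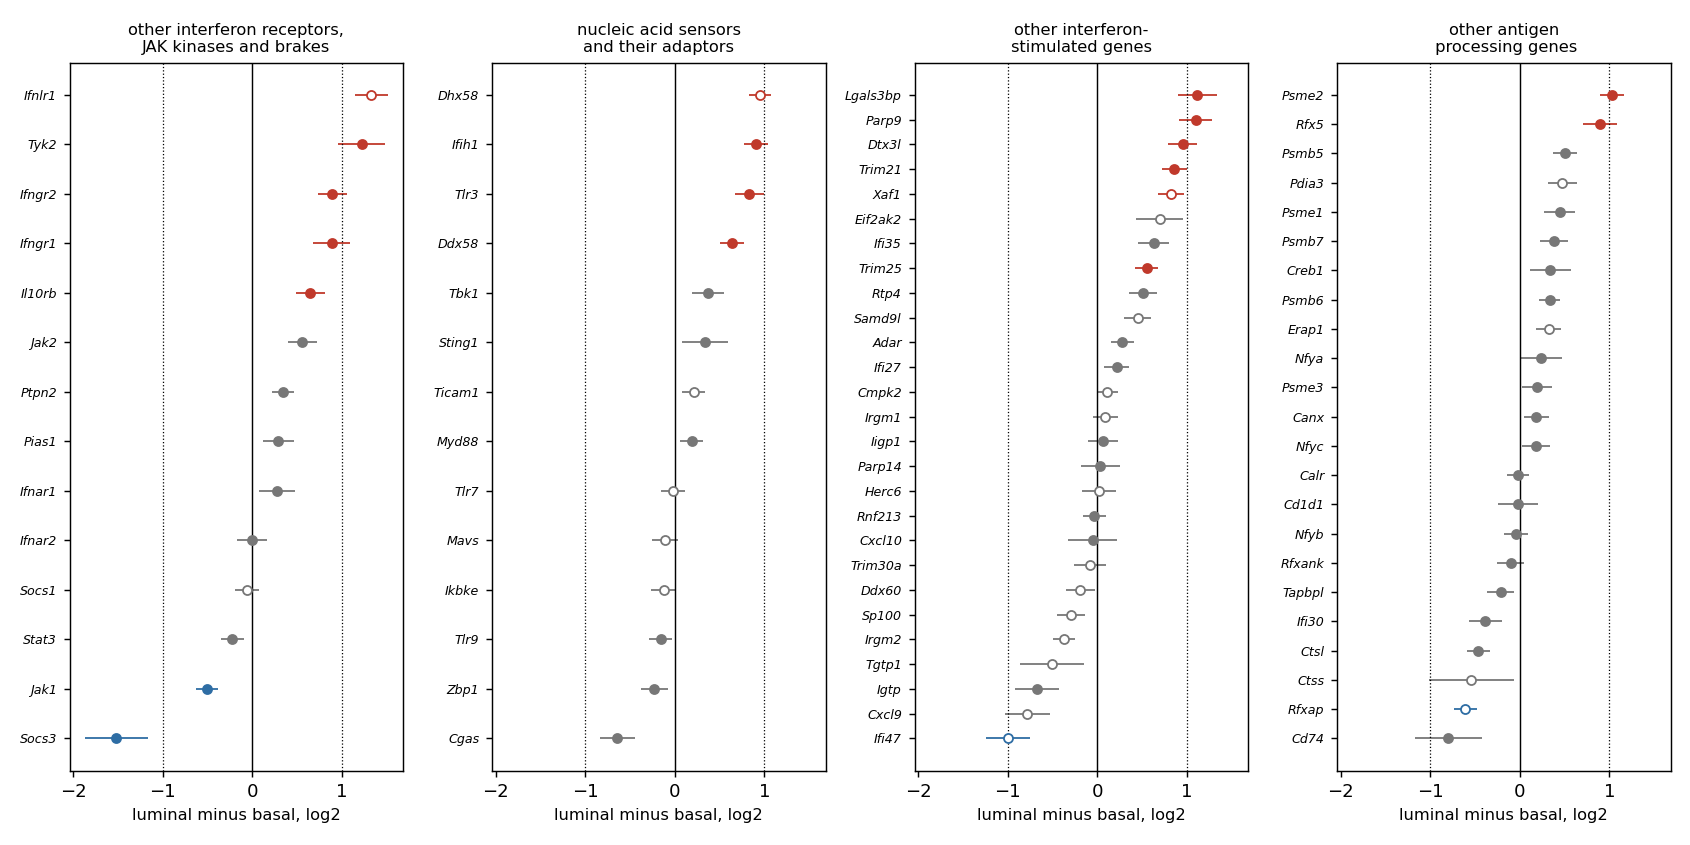
Luminal minus basal difference in log2 intensity (x axis) of the genes of 4 pathway lists outside the 73 members; points are limma estimates, bars their SE, and dotted lines mark 2-fold. Red and blue points passed the adjusted p threshold higher in luminal and in basal cells, open points were not above background in either adult group, and 17 genes are red against 4 blue over the lists, with Ifih1, which is in 2 lists, drawn among the sensors.

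The embryonic columns allowed no reading of these genes in embryonic cells. Embryonic arrays 1 and 2 held identical values in 16913 probe sets, or 37.6% of the table, and in 19 of the 73 members, whereas no embryonic array shared a value with an adult one. Rsad2, for example, was listed at 7.03 on all 3 embryonic arrays, and Gbp4 at 8.65. Embryonic values also lay near the adult mean: over the members, the difference of embryonic minus adult had an SD of 0.126, against 0.445 for luminal minus basal, and over all genes 0.0996, against 0.550. Psmb8 was at 7.29, 7.29 and 7.11 in embryonic cells and Ifitm1 at 7.06, 6.85 and 6.30, both between the luminal and the basal means. How these values were made is not given in the sources used here.

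In a limma fit over all 7 arrays, no member changed between embryonic and adult basal cells, against 12 of all genes, or 0.0702%. At an unadjusted p under 0.05 there were 4 members, or 5.48%, against 9.25% of all genes. Between embryonic and adult luminal cells no member changed either, against 4 of all genes, or 0.0234%. Here 6 members had an unadjusted p under 0.05, or 8.22%, against 12% of all genes. Because of the repeated values, these counts describe the table and not the embryonic cells.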

How the data were processed

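Biotin-labelled cDNA made by whole transcriptome amplification from total RNA was measured on 7 Affymetrix arrays, per the labels' protocols. The authors deposited probe set intensity values on a linear scale, 1 column per array. The submitters' processing notes name RMA and affy, with no version, setting or order; the background correction and any adjustment between embryonic and adult arrays are not given in the sources used here. Intensities were taken to log2 with no further normalization. Of 45141 rows, 104 control probe sets and 4 rows without values were left out, and 45033 were used. Of these, 28895 had 1 gene symbol, 551 several and 15587 none in the platform annotation. The single-symbol probe set with the highest mean log2 stood for each gene, which gave 17096 genes.

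The difference between adult luminal and adult basal cells was fitted on the 4 adult arrays with limma 3.58.1 (lmFit and eBayes) in R 4.3.3, with Benjamini-Hochberg adjustment over all genes. Embryonic arrays entered only a fit of 3 groups. The test was checked on simulated data. Alternatives covered the probe set chosen, filter, normalization, fold minimum, eBayes options, array weights, the replicate number as a block, and leaving out each array. Members and lists were chosen with earlier results of these data known.

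Members named were those that changed, a fixed set of classical genes, those at least 2-fold apart that did not pass, and per family the one with the highest level and the one with the largest difference. From each pathway list, changed genes and up to 2 others in list order were named. Other genes named with values, such as H2-T10, H2-Eb1, Oasl2, Ifitm2, Lyz2, the gamma receptor chains, Dtx3l and the standard proteasome subunits, were chosen after their values were seen. Promoter windows came from RefSeq. Python 3.11.15 with pandas 2.3.3 and matplotlib 3.10.9 made tables and figures.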

Additional observations from a re-analysis of the deposited data

How the results depend on the processing

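The 2 changed members (Psmb8 and Ifitm1) became 1 with the mean of all probe sets of a gene, 6 with no fold minimum, 5 with a fold minimum of 1.5, 4 with the replicate number as a block, 3 with an intensity trend in eBayes, which adds Usp18 (adjusted p = 0.0326), and 1 with every probe set tested on its own, the last chosen after seeing the data. Leaving out each adult array gave 0 to 3 changed members: 0 without luminal array 1, 2 without basal array 1, and 3 without either of the others. Over all genes, 1165 changed, against 2879 with no fold minimum, 2603 with a minimum of 1.5, and 519 to 1443 when each array was left out (519 without luminal array 1), where the lone array is assumed to vary like the other group. The cause was not tested, beyond the fewer arrays or the looser limit. The fit over 7 arrays gave 939 and the block 1208. Psmb8 changed in 12 of 17 settings and Ifitm1 in 14 of 17, with 1 direction each.

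The replicate block added H2-Ab1 (adjusted p = 0.0119) and Usp18 (adjusted p = 0.0426) to the changed members. Whether the replicate numbers mark a shared mouse or day is not stated in the labels, so they were not used as pairs in the reported fit. Same-numbered adult arrays deviated together with r = 0.08 over genes. The differences that reversed were all near 0 or uneven between arrays. With the mean of all probe sets, Ciita was at -0.10, H2-D1 at -0.10, Irf4 at -0.06 and Rsad2 at 0.01, and with arrays centred on their median Ifnar2 was at 0.01. With each array left out, Calr ran from -0.07 to 0.04, Ciita from -0.06 to 0.18, Gbp4 from -0.32 to 0.15, H2-Eb1 from -1.46 to 0.13, H2-K1 from -0.11 to 0.13, Ifnar2 from -0.19 to 0.18, Irf4 from -0.02 to 0.08, Irf7 from -0.16 to 0.02, Irf9 from -0.04 to 0.20, Nlrc5 from -1.10 to 0.07, Ptprc from -0.31 to 0.14 and Rsad2 from -0.58 to 0.36. No member changed against embryonic cells in any setting run with limma. With the background level at the 90th percentile, chosen after seeing the data, 34 members were above it by their mean, against 29. Genes below background, single class I genes and the values of 2 arrays a group limit what these differences show.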
